A study of Mus musculus with 2 samples.

Results

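A gene can be read from more than 1 start, and 127 mouse genes in which this was measurable are described here. Each gene was listed with exactly 2 transcripts that lay on the same strand of the same chromosome, ended at the same place and began far apart. The members were chosen by transcript coordinates, with 3′ ends within 50 bases and 5′ ends at least 5000 bases apart, and by abundance, with at least 200 estimated counts for each transcript when both libraries were summed. They made up 127 of 758 genes with exactly 2 transcripts at that abundance, among 23329 genes in all. The value of interest was the upstream share, the percentage of a gene's counts that was assigned to the transcript with the more 5′ start.

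RNA came from whole brain of C57BL/6 wild-type mice. The titles of both libraries carry the label CT10, and no sample with another such label was used. The synaptosome fraction, 1 library, was collected from a Percoll density gradient after nuclei had been spun out of the homogenised tissue. It is enriched in synaptosomes, which are pinched-off nerve terminals that often carry a piece of postsynaptic membrane. The total homogenate, 1 library, was the starting material of that preparation. The sources used here do not give age, sex or the number of animals behind each library, and with 1 library of each kind no value below has a replicate. Differences are therefore between these 2 libraries, no p-value is given, and intervals cover counting error only.

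Alternative promoters are common in brain genes. A second promoter inside a gene can give an mRNA with another 5′ untranslated region and the same protein, or a protein that lacks the N-terminal domains of the full-length form. The 5′ untranslated region bears on how an mRNA is translated, and the N-terminus can hold signal peptides, lipid anchors or whole enzymatic domains. Well-known pairs of this kind among the members are somatic and testis angiotensin-converting enzyme (Ace), p85α and p55α of phosphoinositide 3-kinase (Pik3r1), Dnmt3a1 and Dnmt3a2, and the long and short reticulons of Rtn1.

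The synaptosome library held 13709528 estimated counts and the homogenate library 15210838. Members had 98 to 83022 counts in the synaptosome fraction, with a median of 1041, and 247 to 35949 in the homogenate, with a median of 1199. Marker genes set the fractions apart. Their calls rest on the scaled gene ratios described under processing and their sums on TPM, which are different measures. Past 2-fold, dendritic mRNAs had 7 of 10 higher in the synaptosome fraction and 0 lower, with a summed level of 11119 TPM in the synaptosome fraction against 4442 TPM in the homogenate. Of 10 somatic and nuclear RNAs 0 were higher and 9 lower, with sums of 910 TPM in the synaptosome fraction against 4599 TPM in the homogenate. Glial and vascular lists differed as well. Astrocyte markers had 9 of 10 higher and 0 lower (sums of 24368 TPM in the synaptosome fraction against 8193 TPM in the homogenate). Oligodendrocyte markers had 2 of 10 higher and 0 lower (22135 TPM in the synaptosome fraction against 10167 TPM in the homogenate). Their median log2 ratio was only 0.07, with a range from -0.99 to 2.41, so the sums do not stand for the typical gene of that list. Microglial markers had 4 of 10 higher and 0 lower (967 TPM in the synaptosome fraction against 696 TPM in the homogenate), and endothelial markers 0 of 10 higher and 9 lower (27.4 TPM in the synaptosome fraction against 328 TPM in the homogenate). No marker of any list was at 0 in either library. The part of these cell types in the shares below was not tested. The synaptosome fraction holds pieces of cells, so its marker levels do not count cells. Fewer pieces of a type and less RNA in each cannot be told apart.

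Across the 127 genes the upstream share was more often higher than lower in the synaptosome fraction. The median upstream share was 55.4% in the synaptosome fraction and 38.8% in the homogenate, and the median of the genes' own differences was 5.06 percentage points. The difference was above 0 in 89 genes, below 0 in 37 and exactly 0 in 1. It ranged from 65.5 points lower to 100 points higher, and the exact 95% counting interval of the odds ratio excluded 1 in 104 genes, 81.9% of them, which sits beside 80.2% of all genes with exactly 2 transcripts. Members were called higher or lower where their shares differed by at least 10 percentage points and the exact 95% interval of the odds ratio excluded 1. By that rule 52 genes (40.9%) had a higher upstream share in the synaptosome fraction, 14 (11.0%) had a lower one and 61 did neither.

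**Figure D1:**
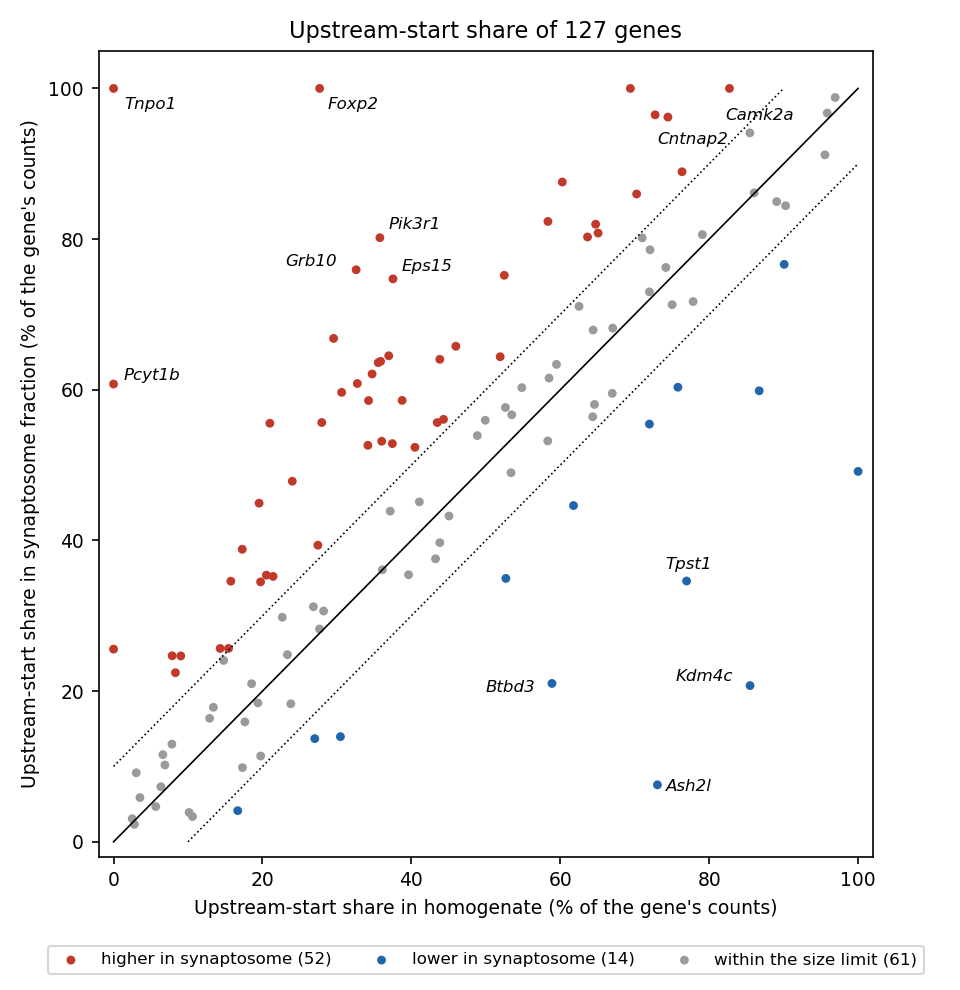
Upstream share of each of the 127 genes in the synaptosome fraction (vertical axis, % of the gene's counts) against the homogenate (horizontal axis, %). The solid line marks equal shares and the dotted lines a difference of 10 points; 52 genes lie in the higher group, 14 in the lower group and 61 in neither, with no error bars drawn.

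Those counts need the background beside them. Of all 758 genes with exactly 2 transcripts, 49.6% had a share that differed by this rule in either direction, so the 66 of 127 members (52.0%) were close to the usual share. The direction was less even. Among the 275 genes of any start distance over 50 bases, the upstream share was higher in the synaptosome fraction in 30.9% and lower in 18.2%, members included. In the 124 genes whose starts were over 50 and under 5000 bases apart and whose 3′ ends matched, it was higher in 30 and lower in 35, with a median difference of 0.73 points. No test of the difference between these sets was made.

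The larger transcript of the pair was not the same one in both libraries for 35 genes. In 27 of them the upstream transcript was the larger in the synaptosome fraction and the downstream one in the homogenate, and in 8 the reverse. Setting the transcripts' own ratios side by side, the upstream transcript was above the typical gene and the downstream one below it in 29 genes, and the opposite held in 14. These counts were not set beside those of genes outside the members, so whether they are unusual was not tested.

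The start regions of 4 members with large differences are printed so that both promoters of a gene can be read side by side. The regions, from 250 bases before to 50 bases after a start, were taken from RefSeq on GRCm38.p6, the assembly that mm10 names. Shown are the 2 genes with the largest higher share and the 2 with the largest lower share that had no count of 0, kept their direction and a difference of at least 10 points under the second count estimate deposited, and had both starts listed at exactly the same base. Capitals mark matches on either strand to the TATA-box motif TATAAA, the CAAT-box motif CCAAT, the GC box GGGCGG, which Sp1 binds, or the cAMP-response motif TGACGTCA. A GC box on the opposite strand reads CCGCCC in the printed lines. For Grb10 on the minus strand the windows are chr11:12037371-12037670 and chr11:12027922-12028221. For Acvr1c, also on the minus strand, they are chr2:58357709-58358008 and chr2:58324758-58325057. For Kdm4c on the plus strand they are chr4:74242247-74242546 and chr4:74251629-74251928, and for Btbd3 on the plus strand chr2:138256334-138256633 and chr2:138278243-138278542, the upstream window given before the downstream one.
Grb10 upstream start: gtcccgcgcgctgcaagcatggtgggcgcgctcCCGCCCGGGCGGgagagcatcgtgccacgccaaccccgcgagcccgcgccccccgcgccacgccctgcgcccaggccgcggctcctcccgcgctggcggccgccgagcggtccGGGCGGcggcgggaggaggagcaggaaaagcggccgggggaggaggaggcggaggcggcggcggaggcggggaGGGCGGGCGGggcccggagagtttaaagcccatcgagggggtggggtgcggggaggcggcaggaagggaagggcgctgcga
Grb10 downstream start: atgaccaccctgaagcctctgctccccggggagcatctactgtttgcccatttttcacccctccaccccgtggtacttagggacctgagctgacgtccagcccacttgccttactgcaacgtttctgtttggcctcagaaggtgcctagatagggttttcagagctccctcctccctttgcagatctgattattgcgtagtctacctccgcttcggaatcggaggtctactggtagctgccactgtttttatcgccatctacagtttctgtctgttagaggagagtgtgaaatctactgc
Acvr1c upstream start: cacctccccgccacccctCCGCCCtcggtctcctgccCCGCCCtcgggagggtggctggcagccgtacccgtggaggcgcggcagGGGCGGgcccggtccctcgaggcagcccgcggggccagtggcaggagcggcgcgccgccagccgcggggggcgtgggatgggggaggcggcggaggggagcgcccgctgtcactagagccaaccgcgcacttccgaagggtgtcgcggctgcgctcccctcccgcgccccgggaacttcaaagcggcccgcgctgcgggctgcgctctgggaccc
Acvr1c downstream start: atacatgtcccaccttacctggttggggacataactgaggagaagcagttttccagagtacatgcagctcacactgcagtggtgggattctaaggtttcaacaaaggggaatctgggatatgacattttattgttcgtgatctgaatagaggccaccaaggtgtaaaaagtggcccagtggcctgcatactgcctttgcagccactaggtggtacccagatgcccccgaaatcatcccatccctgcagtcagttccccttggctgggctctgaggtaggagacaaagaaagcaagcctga
Kdm4c upstream start: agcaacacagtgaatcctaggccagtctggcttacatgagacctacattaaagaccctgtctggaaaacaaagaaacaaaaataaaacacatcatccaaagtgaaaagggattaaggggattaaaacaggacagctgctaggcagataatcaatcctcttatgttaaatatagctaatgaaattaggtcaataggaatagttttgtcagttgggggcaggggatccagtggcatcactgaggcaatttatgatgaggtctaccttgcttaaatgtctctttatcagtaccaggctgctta
Kdm4c downstream start: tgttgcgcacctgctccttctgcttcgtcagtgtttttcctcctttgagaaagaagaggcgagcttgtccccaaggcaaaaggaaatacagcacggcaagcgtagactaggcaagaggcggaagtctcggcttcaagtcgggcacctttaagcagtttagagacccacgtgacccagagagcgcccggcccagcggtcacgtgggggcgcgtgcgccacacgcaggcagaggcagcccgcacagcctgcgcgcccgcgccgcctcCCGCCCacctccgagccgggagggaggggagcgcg
Btbd3 upstream start: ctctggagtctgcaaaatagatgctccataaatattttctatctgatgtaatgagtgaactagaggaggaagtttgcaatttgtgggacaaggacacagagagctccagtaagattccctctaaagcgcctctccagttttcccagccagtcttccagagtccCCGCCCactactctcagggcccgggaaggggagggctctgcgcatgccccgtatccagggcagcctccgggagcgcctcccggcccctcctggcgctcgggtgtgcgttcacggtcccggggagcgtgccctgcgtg
Btbd3 downstream start: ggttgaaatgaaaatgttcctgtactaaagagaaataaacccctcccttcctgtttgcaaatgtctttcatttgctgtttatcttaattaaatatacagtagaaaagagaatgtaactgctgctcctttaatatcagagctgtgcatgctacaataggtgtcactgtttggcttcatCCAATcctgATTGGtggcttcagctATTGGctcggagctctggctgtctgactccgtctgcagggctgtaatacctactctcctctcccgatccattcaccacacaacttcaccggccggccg
In Grb10 and Acvr1c the upstream window was GC-rich, with 80.0% and 79.0% G or C, and the downstream window was not, with 52.3% and 50.3%. The upstream window of Grb10 held 5 GC boxes and that of Acvr1c 3, and neither downstream window held any of the 4 motifs. Kdm4c had the opposite layout, with 40.0% G or C and no CpG at its upstream start and 64.7% at its downstream start, which held 1 GC box. Btbd3 had 58.7% upstream, with 1 GC box, and 44.7% downstream, where CCAAT matched 3 times.

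Grb10 encodes an adaptor that restrains insulin and growth factor receptors, and it is an imprinted gene. In mouse, its upstream start is known to be read from the maternal allele in most tissues, while downstream starts are read from the paternal allele in neurons. The upstream transcript had 246 counts and the downstream transcript 78 in the synaptosome fraction, against 362 and 749 in the homogenate. The upstream share was thus 75.9% (95% counting interval 70.9 to 80.5) in the synaptosome fraction and 32.6% (29.8 to 35.4) in the homogenate, a difference of 43.3 points (37.6 to 48.7). The gene as a whole was 2.20-fold lower in the synaptosome fraction. Relative to the typical gene the upstream transcript was level, at 0.09 on the log2 scale, and the downstream transcript was lower by far, at -2.62. The second estimate of the counts gave a smaller difference of 37.2 points.

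Acvr1c encodes activin receptor type 1C (ALK7), a receptor of the TGF-β family. It had 149 upstream and 74 downstream counts in the synaptosome fraction, against 73 and 174 in the homogenate. The upstream share was 66.8% (60.2 to 73.0) in the synaptosome fraction and 29.6% (23.9 to 35.7) in the homogenate. The downstream transcript codes for 363 residues in place of 493 and starts inside intron 1 of the longer one, so its protein lacks the N-terminal part, where the signal peptide and ligand-binding domain lie.

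Kdm4c and Ash2l, which both act on histone methylation, had the largest lower shares. Kdm4c is a histone demethylase and Ash2l a core subunit of the complexes that methylate lysine 4 of histone H3. Ash2l (starts at chr8:25847670 and chr8:25840779) had 27 upstream and 330 downstream counts in the synaptosome fraction, against 477 and 176 in the homogenate, and its upstream share was 7.56% (5.04 to 10.8) in the synaptosome fraction against 73.0% (69.5 to 76.4) in the homogenate. Kdm4c had 51 upstream and 195 downstream counts in the synaptosome fraction, against 383 and 65 in the homogenate, which gave shares of 20.7% (15.8 to 26.3) in the synaptosome fraction and 85.5% (81.9 to 88.6) in the homogenate. In neither gene did the total differ by 2-fold between the libraries, at 1.17-fold lower for both in the synaptosome fraction. In Kdm4c both transcripts have the same coding start and 1054 codons. In Ash2l they code for 534 residues from the upstream start and 623 from the downstream one. The second estimate gave smaller differences, -57.2 points for Ash2l and -41.5 points for Kdm4c, in the same direction.

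Btbd3 encodes a BTB-domain protein that in mouse orients dendrites toward active axons. The upstream transcript had 533 counts and the downstream one 2003 in the synaptosome fraction, against 1226 and 856 in the homogenate. Its upstream share was 21.0% (19.5 to 22.7) in the synaptosome fraction and 58.9% (56.7 to 61.0) in the homogenate. The gene total was 1.90-fold higher in the synaptosome fraction, and that excess sat in the downstream transcript, at 1.87 on the log2 scale against -0.56 for the upstream one. The downstream form is the longer protein, with 530 codons in place of 461.

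**Figure D2:**
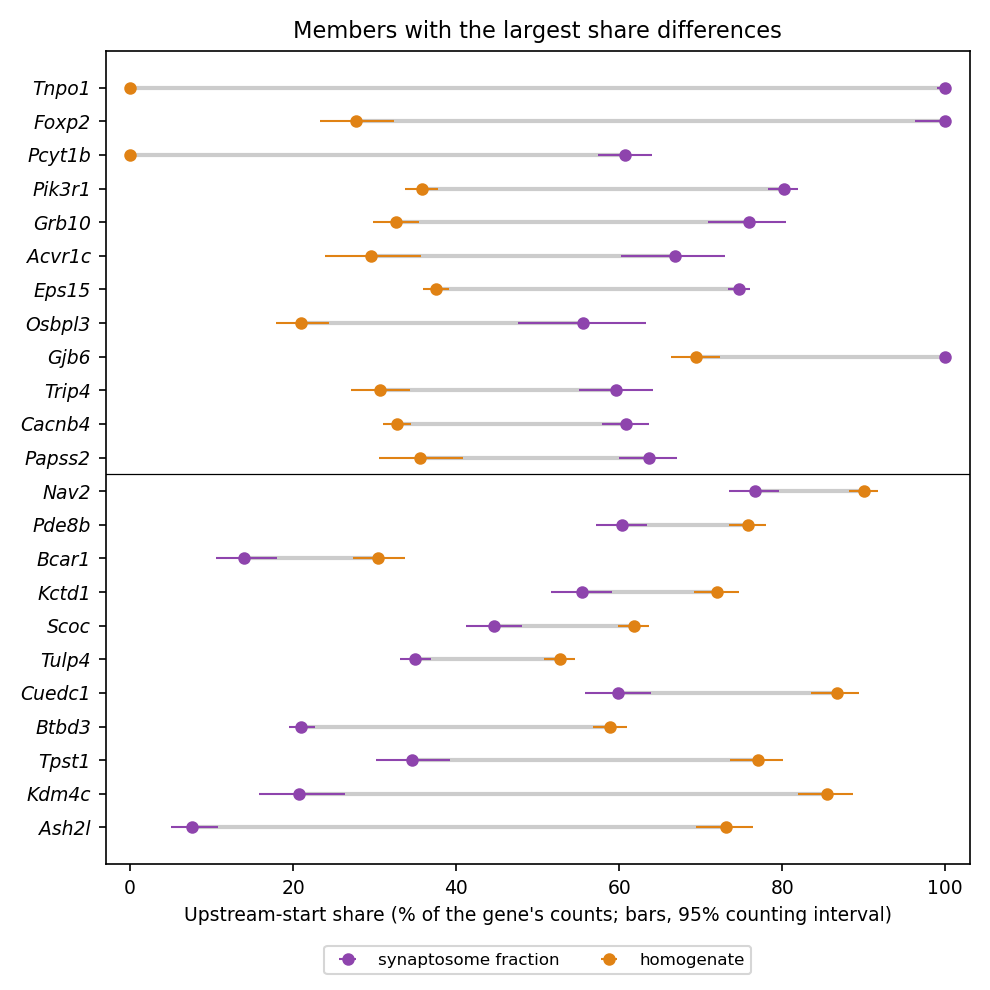
Upstream share (%) in the synaptosome fraction (purple) and the homogenate (orange) for the 12 genes with the largest higher and 11 of the 12 with the largest lower share past the size limit, with bars for the exact 95% counting interval. The genes drawn run from Tnpo1 (100% in the synaptosome fraction and 0% in the homogenate) to Ash2l (7.56% in the synaptosome fraction and 73.0% in the homogenate). The intervals of the 2 libraries do not overlap for any of them. The genes were picked by the size of the difference, so nothing is read from that separation.

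Pik3r1 had the largest positive share difference among genes with counts of both transcripts in both libraries. It encodes the regulatory subunit of phosphoinositide 3-kinase. The upstream start (chr13:101768217) gives the p85α form of 724 residues and the downstream start (chr13:101692647), inside intron 7, the short p55α form of 454 residues, which lacks the N-terminal SH3 domain. The upstream transcript had 1485 counts and the downstream one 367 in the synaptosome fraction, against 807 and 1449 in the homogenate. The p85α transcript was therefore 80.2% (78.3 to 82.0) of the gene's counts in the synaptosome fraction and 35.8% (33.8 to 37.8) in the homogenate. The log2 odds ratio was 2.86 (2.65 to 3.07), and the second estimate gave the same difference, 44.4 points.

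Eps15, an adaptor of clathrin-mediated endocytosis, had 3186 upstream and 1078 downstream counts in the synaptosome fraction, against 1368 and 2277 in the homogenate. Its upstream share was 74.7% (73.4 to 76.0) in the synaptosome fraction and 37.5% (36.0 to 39.1) in the homogenate. The upstream transcript codes for 897 residues and the downstream one, which begins in intron 12, for 583. The starts lie at chr4:109280275 and chr4:109343056.

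The other 4 genes among the 12 largest higher shares that had counts of both transcripts throughout were Osbpl3, Trip4, Cacnb4 and Papss2. Osbpl3, an oxysterol-binding lipid carrier, had an upstream share of 55.6% in the synaptosome fraction and 21.0% in the homogenate. Trip4, a transcriptional coactivator subunit, had 59.7% in the synaptosome fraction against 30.6% in the homogenate, and Cacnb4, the β4 subunit of voltage-gated calcium channels, had 60.8% in the synaptosome fraction against 32.7% in the homogenate. Papss2, which makes the sulfate donor of sulfation reactions, had 63.6% in the synaptosome fraction against 35.5% in the homogenate and was 3.33-fold higher as a gene. In each of these 4 the upstream transcript was the major form in the synaptosome fraction and the minor one in the homogenate, with differences of 28.1 to 34.6 points.

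Counts of 0 set the extreme values, and they were the least certain. A transcript was at 0 in a library in 7 genes, 6 of them with a higher upstream share and 1 with a lower one. Each such transcript met the limit of 200 summed counts through the other library alone, so the filter favoured a difference in these genes. They are included in the calls above and in the groups below. Of the 120 members without a 0, 46 were higher and 13 lower. Tnpo1, a nuclear import receptor, had 367 upstream and 0 downstream counts in the synaptosome fraction, against 0 and 467 in the homogenate, a difference of 100 points. A count of 0 allows a downstream share of up to 0.817% in the synaptosome fraction and an upstream share of up to 0.642% in the homogenate, for counting error only. Yet the 2 transcripts of Tnpo1 share all but 134 and 128 bases, and under the second estimate the upstream share was 67.3% in the synaptosome fraction and 46.2% in the homogenate. Its direction was the same under both estimates and its size was not.

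The other zeros behaved unevenly under the second estimate. Pcyt1b, which makes the CDP-choline used for phosphatidylcholine, had 528 upstream and 341 downstream counts in the synaptosome fraction, against 0 and 1249 in the homogenate, where 0 allows a share of up to 0.240%. Its second estimate was 59.6% in the synaptosome fraction and 4.06% in the homogenate. Tnrc6b, a partner of Argonaute in microRNA silencing, had 221 upstream and 643 downstream counts in the synaptosome fraction, against 0 and 1519 in the homogenate, and its second estimate was 31.8% in the synaptosome fraction against 4.10% in the homogenate. Gjb6, the gap junction protein connexin 30 of astrocytes, had 1129 upstream and 0 downstream counts in the synaptosome fraction, against 665 and 293 in the homogenate, and the second estimate left its shares at 99.0% in the synaptosome fraction and 69.6% in the homogenate. Phyhipl, a neuronal protein similar to a phytanoyl-CoA hydroxylase-interacting protein, had 1996 and 0 counts in the synaptosome fraction, against 3055 and 638 in the homogenate, with second estimates of 95.8% in the synaptosome fraction and 82.6% in the homogenate. In these 4 genes the difference kept its direction and lay past 10 points under both estimates.

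Foxp2 moved more. Foxp2, a transcription factor tied to speech in humans, had 98 upstream and 0 downstream counts in the synaptosome fraction, where 0 of 98 allows a share of up to 3.06%, against 111 and 290 in the homogenate. Its upstream share was 100% in the synaptosome fraction against 27.7% in the homogenate, or 73.5% in the synaptosome fraction against 34.7% in the homogenate under the second estimate, and it was 2.62-fold lower as a gene. Over all 66 genes past the size limit, 62 kept their direction and a difference of at least 10 points under the second estimate. Bcar1 (-7.89 points), Plxnb2 (-6.03), Cacna1d (8.33) and 8430427H17Rik (9.85) kept their direction only.

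Lower upstream shares beyond those already described came from genes of mixed function. Tpst1, which sulfates tyrosines of secreted proteins, had 153 upstream and 289 downstream counts in the synaptosome fraction, against 528 and 158 in the homogenate, and shares of 34.6% (30.2 to 39.3) in the synaptosome fraction and 77.0% (73.6 to 80.1) in the homogenate. Both Tpst1 transcripts code for the same 370 residues. Cuedc1, a CUE-domain protein, had 59.9% in the synaptosome fraction and 86.7% in the homogenate. Tulp4, a tubby-like protein, had 35.0% in the synaptosome fraction against 52.7% in the homogenate, and Scoc, a coiled-coil protein of the Golgi, had 44.6% in the synaptosome fraction against 61.8% in the homogenate. Kctd1, a BTB-domain transcription regulator, had 55.5% in the synaptosome fraction against 72.0% in the homogenate, Bcar1, the focal adhesion scaffold p130Cas, had 14.0% in the synaptosome fraction against 30.5% in the homogenate, and Rusc2, a vesicle adaptor, had 4.13% in the synaptosome fraction against 16.7% in the homogenate. The downstream transcript of Kctd1 codes for 861 residues and the upstream one for 265, so here the later start gave the longer protein.

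Members were also grouped by function from their gene symbols, which leaves some genes of a function outside its group. The groups are small, their counts are to be read beside the 40.9% higher and 11.0% lower over all members, and no difference between groups was tested. Of 7 regulators of small GTPases, 3 had a higher upstream share, 0 a lower one and 4 neither. Rgs12, which turns off G-protein signalling, fell into this group by its symbol. It had 280 upstream and 343 downstream counts in the synaptosome fraction, against 146 and 601 in the homogenate. The Rgs12 shares were 44.9% (41.0 to 48.9) in the synaptosome fraction and 19.5% (16.8 to 22.6) in the homogenate. Its upstream form has 1381 codons and its downstream form 723. Arhgap32, a GTPase-activating protein of the postsynaptic density, had 911 and 2782 counts in the synaptosome fraction, against 492 and 4958 in the homogenate, so its long form of 2089 residues was 24.7% in the synaptosome fraction against 9.03% in the homogenate. Elmo1, a partner of the Rac activator Dock, had 35.2% in the synaptosome fraction against 21.4% in the homogenate.

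The other 4 regulators differed by less than the size limit. Iqsec2, an Arf activator of the postsynaptic density, had 45.1% (43.5 to 46.7) in the synaptosome fraction and 41.1% (39.2 to 43.0) in the homogenate, and Iqsec1, its relative, had 86.1% in the synaptosome fraction and 86.0% in the homogenate. For Iqsec1 the difference was 0.10 points, with an interval from 1.38 lower to 1.57 higher. Chn2, the Rac-inactivating β-chimaerin, had 56.7% in the synaptosome fraction against 53.5% in the homogenate, and Sipa1l1, a Rap inactivator of dendritic spines, 5.87% in the synaptosome fraction against 3.54% in the homogenate. As genes, Iqsec2 and Sipa1l1 were 2.32-fold and 2.16-fold higher in the synaptosome fraction, with share differences under the size limit.

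Among 5 kinases, 1 had a higher upstream share and 0 a lower one. Pak6, a p21-activated kinase, had 1446 upstream and 477 downstream counts in the synaptosome fraction, against 613 and 555 in the homogenate. Its shares were 75.2% (73.2 to 77.1) in the synaptosome fraction and 52.5% (49.6 to 55.4) in the homogenate, and both transcripts encode the same 682 residues. Camk2a, the α subunit of calcium/calmodulin-dependent kinase II, whose mRNA is carried into dendrites, had 78122 upstream and 4900 downstream counts in the synaptosome fraction, against 30724 and 5225 in the homogenate. The full kinase of 478 residues was 94.1% (93.9 to 94.3) of the counts in the synaptosome fraction and 85.5% (85.1 to 85.8) in the homogenate. The downstream start lies in intron 12 and gives a product of 200 residues without the kinase domain, a form known from muscle as αKAP. The difference of 8.63 points was under the size limit, although Camk2a had narrow intervals and a log2 odds ratio of 1.44 (1.38 to 1.50).

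Akt2, Csnk1g2 and Stk32c lay on the other side of 0, also under the size limit. Akt2, a kinase of insulin signalling, had an upstream share of 3.35% in the synaptosome fraction and 10.6% in the homogenate. Csnk1g2, a casein kinase 1 isoform, had 3.89% in the synaptosome fraction against 10.2% in the homogenate, and Stk32c had 58.1% in the synaptosome fraction against 64.6% in the homogenate. Small shares hide large ratios: the log2 odds ratio was -1.78 (-2.18 to -1.37) for Akt2 and -1.48 (-1.84 to -1.12) for Csnk1g2. When genes were counted by a log2 odds ratio of at least 1 in size in place of a difference of 10 points, 47 members (37.0%) were higher and 17 (13.4%) lower, beside 26.2% and 17.8% of the 275 genes with starts over 50 bases apart.

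Of 6 phosphatases and phosphodiesterases, 3 had a higher upstream share and 1 a lower one. Ctdsp2, a small phosphatase of RNA polymerase II, had 1251 and 885 counts in the synaptosome fraction, against 637 and 1223 in the homogenate, and shares of 58.6% (56.4 to 60.7) in the synaptosome fraction and 34.2% (32.1 to 36.5) in the homogenate. Pde4a, which degrades cAMP, had 523 and 989 counts in the synaptosome fraction, against 398 and 2129 in the homogenate. The long Pde4a form of 844 residues was 34.6% (32.2 to 37.0) of counts in the synaptosome fraction and 15.8% (14.3 to 17.2) in the homogenate, and the short form of 610 residues was the major one in both. Pde8b, another cAMP phosphodiesterase, went the other way, with 60.3% in the synaptosome fraction and 75.8% in the homogenate. Ppp2r3a, a regulatory subunit of protein phosphatase 2A, had 60.3% in the synaptosome fraction against 54.8% in the homogenate, while Ppp2r2b, another, had 21.0% in the synaptosome fraction against 18.5% in the homogenate.

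Among 8 genes named as channels, receptors or transporters, 4 had a higher upstream share and 0 a lower one. Cacnb4, given above, was joined by Cacna1d, the pore of the L-type calcium channel Cav1.3, at 88.9% in the synaptosome fraction and 76.4% in the homogenate. Slc45a4, a solute carrier, had 64.4% in the synaptosome fraction against 51.9% in the homogenate. Atp2b2, the plasma membrane calcium pump of many terminals and dendrites, had 1586 upstream and 15730 downstream counts in the synaptosome fraction, against 294 and 9355 in the homogenate. Its share was only 9.16% (8.73 to 9.60) in the synaptosome fraction against 3.05% (2.71 to 3.41) in the homogenate, yet the upstream transcript itself was 3.07 higher on the log2 scale and the downstream one 1.39. Scn8a, the sodium channel Nav1.6, had 4.68% in the synaptosome fraction against 5.67% in the homogenate, and Slc3a2, the heavy chain of amino acid exchangers, 30.6% in the synaptosome fraction against 28.2% in the homogenate. Slc9a3r2, a scaffold that carries a transporter symbol, had 56.0% in the synaptosome fraction against 49.9% in the homogenate.

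Postsynaptic scaffolds and adhesion molecules held 7 members, of which 4 had a higher upstream share and 2 a lower one. Cntnap2, an adhesion molecule of the neurexin family that gathers potassium channels near nodes, has the widest start distance of all members, 2184335 bases between chr6:45060061 and chr6:47244396. It had 2352 upstream and 93 downstream counts in the synaptosome fraction, against 895 and 307 in the homogenate. The full protein of 1332 residues was 96.2% (95.4 to 96.9) of the counts in the synaptosome fraction and 74.5% (71.9 to 76.9) in the homogenate, while the downstream transcript codes for 108 residues. On TPM, which divides by length, the Cntnap2 difference was larger than the 21.7 points of the counts, at 33.9 points.

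Shank2 (starts at chr7:144175520 and chr7:144284385), a master scaffold of the postsynaptic density, had 957 upstream and 1747 downstream counts in the synaptosome fraction, against 300 and 1162 in the homogenate. Its upstream form of 1472 residues was 35.4% (33.6 to 37.2) in the synaptosome fraction against 20.5% (18.5 to 22.7) in the homogenate, and the gene was 2.89-fold higher in the synaptosome fraction, both transcripts included. Ptprd, a receptor phosphatase that organises synapses and counts in 2 of the groups, had 52.6% (51.0 to 54.2) in the synaptosome fraction against 34.2% (32.8 to 35.5) in the homogenate. Ctnnbip1, an inhibitor of β-catenin, had 52.9% in the synaptosome fraction against 37.4% in the homogenate, with the same 81 residues from either start. Nlgn1, a postsynaptic adhesion partner of neurexins, had 31.2% (28.1 to 34.4) in the synaptosome fraction against 26.8% (24.1 to 29.8) in the homogenate, a difference of 4.36 points (0.09 to 8.62) under the size limit. Plxnb2, a semaphorin receptor, had 13.7% in the synaptosome fraction against 27.0% in the homogenate.

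Of 9 genes grouped by symbol under transcription and chromatin, 4 had a higher upstream share and 1 a lower one. Ash2l and Kctd1, given above with lower shares, act in the same processes but fell outside that group by symbol. Smarca2 (starts at chr19:26605160 and chr19:26748403), the ATPase Brm of the SWI/SNF complex, had 2677 upstream and 574 downstream counts in the synaptosome fraction, against 2724 and 1945 in the homogenate. Its full form of 1583 residues was 82.3% (81.0 to 83.6) in the synaptosome fraction and 58.3% (56.9 to 59.8) in the homogenate, and the downstream start in intron 27 leaves 236 residues without the ATPase domain. Rorb, a nuclear receptor of cortical layers and retina, had 55.7% in the synaptosome fraction against 28.0% in the homogenate, and Rfx3, a factor of ciliary genes, 53.2% in the synaptosome fraction against 36.0% in the homogenate. Dnmt3a, a de novo DNA methyltransferase, had 919 and 340 counts in the synaptosome fraction, against 1335 and 520 in the homogenate. Its shares were 73.0% (70.5 to 75.4) in the synaptosome fraction and 72.0% (69.9 to 74.0) in the homogenate, a difference of 1.03 points (-2.23 to 4.25), so no shift between Dnmt3a1 and Dnmt3a2 was detectable at this depth. Ncoa4, Nfyc and Rfx4 differed by 0.59, 2.06 and -6.14 points. For Nfyc, a subunit of the CCAAT-binding factor, the second estimate turned the sign, to -7.53 points.

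The smaller groups were these. Of 3 genes of vesicle and membrane traffic, Eps15 was higher, while Rtn2 had 71.1% in the synaptosome fraction against 62.5% in the homogenate, and Rtn1 24.8% in the synaptosome fraction against 23.4% in the homogenate. Rtn1, an endoplasmic reticulum protein of neurons, had 3529 upstream and 10680 downstream counts in the synaptosome fraction, against 3915 and 12850 in the homogenate, so the short form of 208 residues was the major one in both. Of 3 cytoskeletal genes, Nav2, a microtubule-associated navigator, was lower, at 76.7% in the synaptosome fraction against 90.1% in the homogenate. Ank2, which tethers membrane proteins to spectrin, had 53.9% (53.1 to 54.8) in the synaptosome fraction against 48.9% (47.9 to 49.8) in the homogenate, and Mtap1a, the microtubule protein MAP1A, 3.06% in the synaptosome fraction against 2.51% in the homogenate. Of 2 genes of RNA binding, Tnrc6b was higher, and Rbfox1, a neuronal splicing factor, had 24.1% (21.9 to 26.4) in the synaptosome fraction against 14.8% (13.7 to 15.9) in the homogenate, just under the size limit.

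The remaining 78 members fell into no group, and 32 of them had a higher upstream share, 9 a lower one and 37 neither. Several code for proteins that differ in a known way, and they are named for that after their values were seen. Ace had 382 upstream and 84 downstream counts in the synaptosome fraction, against 259 and 141 in the homogenate. The somatic form of 1312 residues, with 2 catalytic domains, was 82.0% (78.2 to 85.4) in the synaptosome fraction and 64.8% (59.9 to 69.4) in the homogenate. The rest was assigned to the 732-residue form that is known from testis and whose start lies in intron 12. Abl1, a tyrosine kinase, had 409 and 225 counts in the synaptosome fraction, against 350 and 597 in the homogenate, and the upstream form of 1142 residues, which carries the N-terminal myristoylation site, was 64.5% (60.6 to 68.2) in the synaptosome fraction against 37.0% (33.9 to 40.1) in the homogenate.

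Rcan1, an inhibitor of calcineurin, had 675 and 379 counts in the synaptosome fraction, against 372 and 477 in the homogenate. Its upstream share was 64.0% (61.1 to 66.9) in the synaptosome fraction against 43.8% (40.4 to 47.2) in the homogenate. The downstream start of Rcan1 is known as the one induced by calcineurin and NFAT. Its relative Rcan2 had 43.9% (41.9 to 45.9) in the synaptosome fraction against 37.2% (35.8 to 38.6) in the homogenate. Ahi1, a ciliary transition zone protein mutated in Joubert syndrome, had 1211 and 44 counts in the synaptosome fraction, against 3181 and 1192 in the homogenate. The full form of 1047 residues was 96.5% (95.3 to 97.4) in the synaptosome fraction against 72.7% (71.4 to 74.1) in the homogenate, and the gene was 2.23-fold lower. The downstream Ahi1 transcript, with 142 codons, was at -4.12 on the log2 scale. Among the transcripts of the 127 members with counts in both libraries, that was the lowest ratio.

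The 8 members with the most counts all lay under the size limit, and 2 of them, Dgkz and Tef, fell into no group. Dgkz, which clears diacylglycerol, had 98.8% in the synaptosome fraction against 96.9% in the homogenate, and Tef, a PAR-domain factor of circadian output, had 80.6% in the synaptosome fraction against 79.1% in the homogenate. Of the 5 genes with the widest start distances, Cntnap2, Fgf14 and Ptprd had higher upstream shares, and Rbfox1 and Accn1 differed by 9.29 and 1.14 points. Fgf14, an intracellular regulator of sodium channels at the axon start, had 148 upstream and 21 downstream counts in the synaptosome fraction, against 311 and 205 in the homogenate, and shares of 87.6% (81.6 to 92.1) in the synaptosome fraction and 60.3% (55.9 to 64.5) in the homogenate. Accn1, the acid-sensing channel ASIC2, had 68.2% in the synaptosome fraction against 67.0% in the homogenate.

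The share of the upstream transcript moved with its length. The upstream transcript was the longer of the pair in 95 members, of which 48 had a higher upstream share in the synaptosome fraction and 4 a lower one, with a median difference of 10.2 points. In the 32 members whose upstream transcript was not longer, 4 had a higher share and 10 a lower one, with a median of -4.10 points. Where the upstream transcript was longer by 1000 bases or more, 12 of 20 were higher and 0 lower. Where it was longer by at least 200 and under 1000 bases, 25 of 48 were higher and 0 lower, and where by under 200 bases, 11 of 27 were higher and 4 lower. Across the 127 genes Spearman's correlation between the share difference and the length difference was 0.45, as a description over genes that share 2 libraries.

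**Figure D3:**
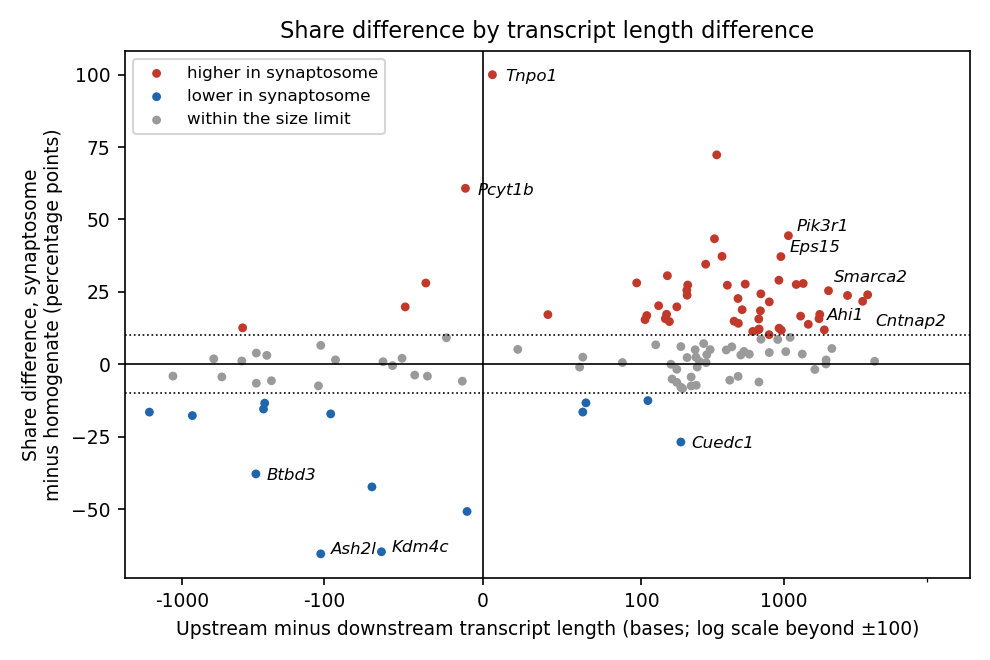
Share difference of each of the 127 genes (synaptosome minus homogenate, percentage points) against the length of the upstream transcript minus that of the downstream one (bases, linear within 100 bases of 0 and logarithmic beyond). Of the 95 genes right of 0, 48 are in the higher group and 4 in the lower one, and of the 32 left of 0, 4 and 10.

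Counted by length in place of position, the longer transcript had a higher share in 58 members (45.7%) and a lower one in 8 (6.30%), with a median of 6.72 points. Over all 745 genes with 2 transcripts of unequal length, members included, the longer one was higher in 32.2% and lower in 17.9%. The 124 genes with nearer starts had a longer transcript that was higher in 50 and lower in 15, with a median of 6.87 points, which is close to the members. The 404 genes whose starts and 3′ ends both matched, and which differ by inner exons, had a longer transcript that was higher in 121 and lower in 100, the median being 0.03 points. The 71 genes with the same start and another 3′ end had 9 higher and 8 lower. The part of transcript length in the share differences, apart from the start itself, was not tested.

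**Figure D4:**
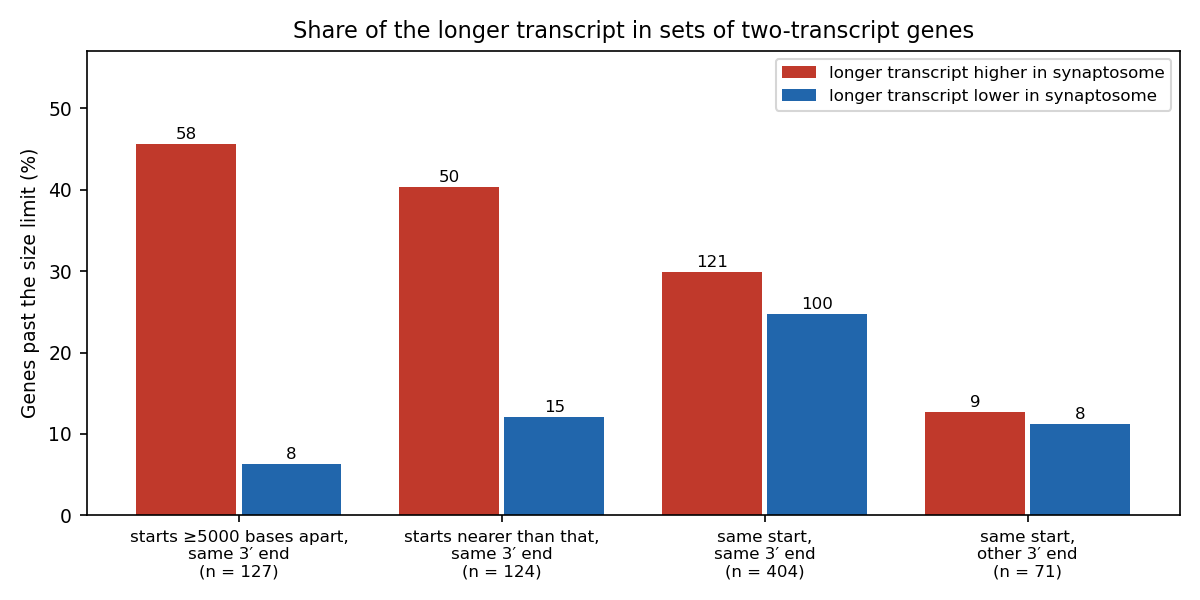
Percentage of genes in which the longer of 2 transcripts had a higher (red) or lower (blue) share of counts in the synaptosome fraction by at least 10 points, in 4 sets of genes, where same means within 50 bases. Numbers above the bars count genes: 58 and 8 of 127 members, 50 and 15 of 124 genes with nearer starts, 121 and 100 of 404, and 9 and 8 of 71.

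Other features of the pair went along with the share. They overlap with the length difference given above and were not separated from it. The downstream transcript had at least 5 fewer exons in 24 members, and 18 of these had a higher upstream share and 0 a lower one, with a median of 16.2 points. Where the downstream start lay in intron 1, 20 of 59 were higher and 12 lower, and where it lay in a later intron, 29 of 59 were higher and 1 lower. The lone lower gene of the later introns was Nav2. Where the downstream start lay inside an exon of the upstream transcript, 3 of 9 were higher and 1 lower. By start distance, 10 of 36 members were higher and 6 lower below 20000 bases, 29 of 65 were higher and 7 lower from 20000 bases to under 100000, and 13 of 26 were higher and 1 lower from 100000 bases on. Spearman's correlation was 0.48 with the bases found only in the upstream transcript and 0.00 with those found only in the downstream one. With the start distance it was 0.23.

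Pairs were also split by whether the protein starts at the same codon. Both transcripts could be matched to coding sequences in 114 members. The coding start was the same in 28, with 12 higher and 3 lower and a median of 4.75 points, and different in 86, with 34 higher and 9 lower and a median of 5.23 points. Of the 13 members that could not be matched, 6 were higher and 2 lower. The upstream transcript was the smaller one in the homogenate in 76 members, of which 39 had a higher upstream share and 3 a lower one. Of the 51 in which it was the larger one in the homogenate, 13 were higher and 11 lower. The homogenate share is part of the difference itself, so this split favours higher calls where it is low and nothing is read from it.

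Exact start regions were listed for 84 upstream and 77 downstream starts, and for both starts of 65 members. In these 65 the median content of G and C was 66.0% at the upstream start and 54.0% at the downstream one, and 50 of the 65 had more at the upstream start. The CpG ratio, which sets the number of CpG pairs against the number that the base content would give, had medians of 0.780 and 0.380. Over all 32851 start regions listed for mouse they were 52.7% and 0.384, so the downstream starts lay near the typical listed region and the upstream ones above it. GGGCGG was found in 80.0% of the upstream and 32.3% of the downstream windows, against 35.7% of all. CCAAT was found in 38.5% and 36.9%, against 37.4% of all, TATAAA in 9.23% and 6.15%, against 13.6%, and TGACGTCA in 1.54% of either, against 1.79%.

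**Figure D5:**
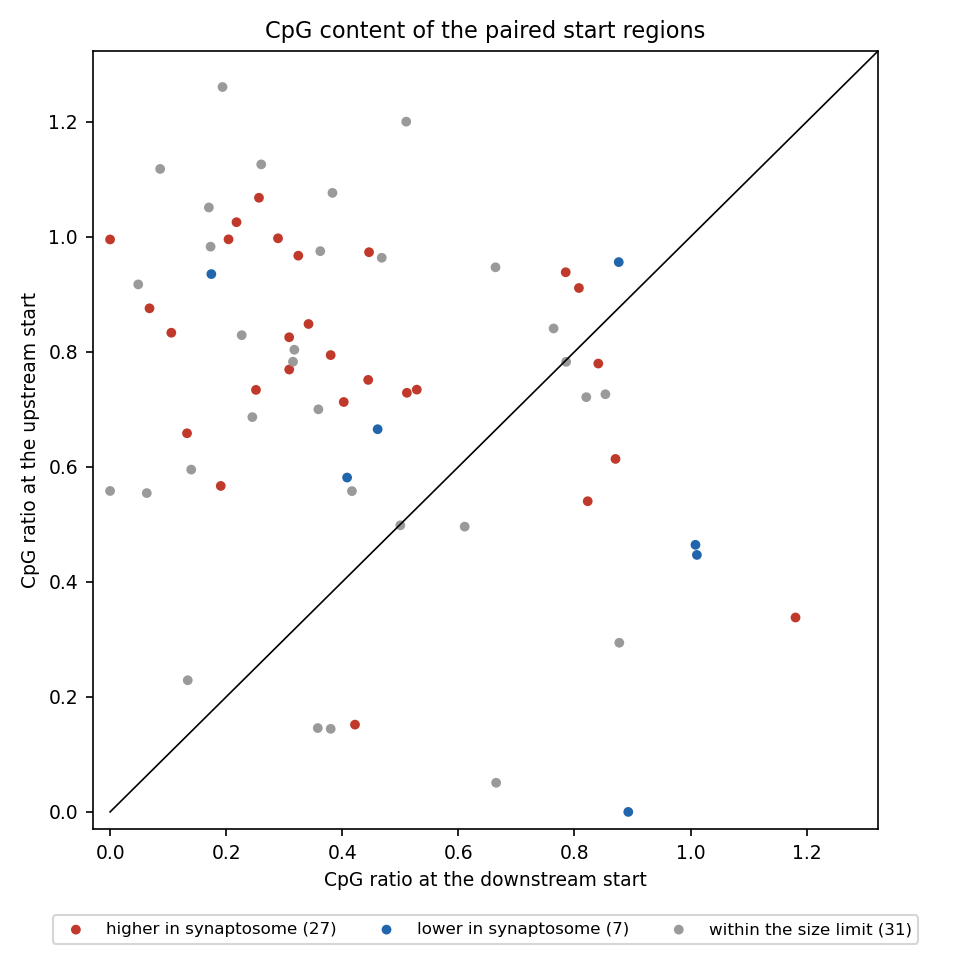
CpG ratio in the 300 bases around the upstream start (vertical axis) against that around the downstream start (horizontal axis) for the 65 members with both starts listed, coloured by whether the upstream share was higher (27), lower (7) or neither (31) in the synaptosome fraction. Points above the line have the higher ratio upstream; medians were 0.780 upstream and 0.380 downstream.

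Base content did not follow the shares in one way. The 27 members with a higher upstream share had medians of 66.7% G and C upstream and 51.3% downstream, and 23 of them had more at the upstream start. The 31 members with neither call had 64.0% and 58.0%, and 24 of them had more at the upstream start. The 7 members with a lower upstream share had 60.7% upstream and 64.7% downstream, with 3 having more at the upstream start. With 7 genes in that last set these are descriptions only, as Kdm4c and Btbd3 above show, which have opposite layouts and the same direction of share.

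The gene totals of the members leaned upward on the main scaling. Of the 127 members, 27 were higher by 2-fold or more in the synaptosome fraction and 8 lower by as much, the median log2 ratio being 0.34. Over the 14113 genes that averaged 1 CPM or more, 12.9% were higher and 8.96% lower, and the median was -0.01. These ratios are relative to the typical gene of each library. Scaling by library totals moved every log2 ratio by -0.49, and then 14 members were higher and 23 lower, so small positive ratios change sign. Shares within a gene do not depend on that scaling. Neurl1a, a ubiquitin ligase, was among the genes in which level and share both stood out, at 3.61-fold higher with an upstream share of 22.4% (21.3 to 23.6) in the synaptosome fraction and 8.31% (7.18 to 9.56) in the homogenate. Abhd4, a lipase of N-acyl phospholipids, was 4.05-fold higher with shares of 7.31% in the synaptosome fraction and 6.36% in the homogenate, and Wsb1, a ubiquitin ligase subunit, was 7.35-fold lower with shares of 86.0% in the synaptosome fraction and 70.3% in the homogenate. Spearman's correlation between the gene ratio and the share difference over the 127 members was -0.08.

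The genes nearest to each limit that defines the members were these. Abhd4, with starts 5103 bases apart, was the closest inside the distance limit, and Mier1, at 4925 bases, was the closest outside, with an upstream share of 21.7% in the synaptosome fraction and 47.0% in the homogenate. Fgf12, an intracellular channel regulator whose 3′ ends differ by 22 bases, was the closest inside the end limit, at 84.4% in the synaptosome fraction against 90.3% in the homogenate, and Hipk2, a nuclear kinase whose ends differ by 68 bases, was outside, at 56.4% in the synaptosome fraction against 43.4% in the homogenate. Foxp2, with 209 counts of its rarer transcript, was the closest inside the count limit, and 2310022A10Rik, with 190.1 counts, was outside, at 64.6% in the synaptosome fraction against 62.0% in the homogenate.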

How the data were processed

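RNA-seq libraries from the synaptosome fraction and the total homogenate were compared, 1 of each, and samples were grouped by the labelled RNA source. The authors deposited, per the file headers, expected counts for each RefSeq transcript and a posterior estimate of the same counts, both fractional, and TPM, whose sum is fixed. They also deposited 1 signal value per gene, which was proportional to the summed expected count. The submitters' processing notes name mm10 as the build and list RSEM 1.2.5, edgeR 3.0.6, TopHat 1.3.3 and FastQC. Their roles and settings were not given in the sources used here. Per the labels' protocols the kit was stranded and selected mRNA, and the read layout of these libraries is not stated. Reads in sequence common to both transcripts cannot name their start, so each share rests on bases found in only 1 transcript: a median of 396 in the upstream one (70 to 4428) and 179 in the downstream one (0 to 1815). In 30 members 1 of the transcripts had under 100 such bases.

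Expected counts were rounded to whole numbers. Shares have exact Clopper-Pearson 95% intervals, odds ratios exact conditional intervals and differences intervals built from those of the shares. They cover counting error only, without that of assigning reads, and PCR copies are not independent molecules. For a count of 0 the upper limit given for its share was set by 3 counts, while shares, intervals and calls used the 0 itself. Gene ratios used TMM factors from edgeR 4.0.16 (R 4.3.3), 0.843 for the synaptosome fraction and 1.19 for the homogenate, and counted as higher or lower when at least 2-fold with an interval excluding 0. Python 3.11.15, numpy 2.4.6, scipy 1.17.1 and pandas 2.3.3 were used. The rule was tried on simulated counts of 758 genes, and in 95.4% of them the true odds ratio lay inside its interval. Among 558 genes simulated without a change, 0 were called. Of 142 given a true difference of 15 points or more, 141 were called with the correct sign. Counts and not reads were simulated, so errors in assigning reads were not tested. Variation between replicate libraries was not tested either, and these rates hold for counting error only. Coding starts came from GENCODE M21 and start regions from RefSeq on GRCm38.p6.

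The members and lists were chosen with earlier results of these data known. Genes were named by rule: the 12 largest differences past the size limit in each direction, the 8 members with the most counts, the 5 with the widest start distance, those next to each limit and those in the functional groups. Any other member given was picked with its values in view. Of the members named by rule, 2 are not reported here. Alternatives were the share of TPM, unrounded counts, other size, count, distance and end limits, the posterior estimate, and for gene ratios library totals, TPM, DESeq2 1.42.0 size factors and the deposited signal.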

Additional observations from a re-analysis of the deposited data

How the results depend on the processing

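The direction of the shift held under every setting tried for the shares, with more members higher than lower. With TPM shares, unrounded counts, the posterior estimate, a minimum of 100 counts, starts at least 1000 bases apart, identical 3′ ends or ends within 500 bases, and without members that had a count of 0 or under 100 bases of their own, both counts stayed within 1.5 times those reported. The posterior estimate gave 50 higher and 12 lower with a median of 4.58 points. The posterior estimate, and leaving out members with a count of 0 or with under 100 bases of their own, were chosen after seeing the data. Counts moved further where the limits themselves changed: with a size limit of 5 points 25 members were lower; with 20 points 27 were higher and 6 lower; with at least 500 counts per transcript 32 of 73 were higher and 6 lower; and with starts at least 20000 bases apart 8 of 91 were lower. For gene totals, library totals gave 14 members higher and 23 lower with a median log2 ratio of -0.15, and TPM gave 10 higher and 23 lower with a median of -0.29, while DESeq2 size factors and the deposited signal gave 27 higher and 8 lower. Of 70 members named by rule, 14 moved by more than their counting interval under the posterior estimate and 3 under TPM. Depth limits share differences of the rarest members to about the widest counting interval of a difference, 9.63 points on either side. No paired analysis was possible because each fraction has 1 library.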

Other observations

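Usp6nl, a GTPase-activating protein of endocytosis, had the same deposited estimates in both libraries to every decimal given: 117.47 counts of the upstream and 206.53 of the downstream transcript in the synaptosome fraction, and 117.47 and 206.53 in the homogenate. Its share difference was therefore exactly 0, the lone such member. The posterior estimates were not identical, at 159.99 and 164.01 counts in the synaptosome fraction and 131.43 and 192.57 in the homogenate, so the upstream share by that estimate was 49.4% in the synaptosome fraction and 40.6% in the homogenate. TPM was also unequal, at 4.17 and 7.59 in the synaptosome fraction and 3.88 and 7.06 in the homogenate.

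Aldh7a1 and Phax lie next to each other in opposite directions on chromosome 18, and both are members. The downstream transcript of Aldh7a1, an enzyme of lysine breakdown, was 2.11 higher on the log2 scale in the synaptosome fraction and its upstream transcript 1.17 higher. The upstream share of Aldh7a1 was 11.4% in the synaptosome fraction and 19.8% in the homogenate, and that of Phax, an adaptor of small nuclear RNA export, was 59.5% in the synaptosome fraction and 67.0% in the homogenate.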
